A study of Mus musculus with 2 samples.

Results

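The genes described here act in G2 and mitosis, the stages in which a cell checks its replicated DNA, builds a spindle, separates its chromosomes and divides. They were compared between the 4T1 parental line, an aggressive mouse mammary carcinoma line that came from a BALB/c mouse, and 4T1-3R_L cells, labelled as liver metastatic and isolated from metastases that had formed in the livers of living animals. Each population was grown in culture and its total RNA was hybridised to 1 Affymetrix array, so there were 2 arrays and no replicates. No drug treatment or engineered allele is named in the labels for either population, and the sources used here do not give the number of mice, of founding clones or the density of the cultures at harvest. The members were 42 named genes, matched to probe sets that are annotated with exactly 1 gene symbol, with the brightest probe set standing for the gene. Of the 42 genes, 41 had such a probe set, and all 41 were measured, meaning at or above the floor defined below on at least 1 array. Over the whole platform, 18194 genes had such a probe set and 11136 of them were measured. Ccnb1, which encodes cyclin B1, was not matched and is not analysed here.

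Entry into mitosis is driven by the kinase CDK1 bound to A- and B-type cyclins, and exit by the anaphase-promoting complex, a ubiquitin ligase that marks cyclins and securin for destruction. Most of the transcripts accumulate late in the cell cycle and are low in resting cells, so a panel of them is often used as a readout of proliferation. Many of their promoters carry CCAAT boxes, bound by NF-Y, and a cell cycle homology region (CHR), through which the MuvB complex represses them in quiescence (as DREAM) and activates them with B-MYB and FOXM1 in G2.

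These elements were looked for in the RefSeq promoter windows of the GRCm38.p6 build, which run from 250 bases before to 50 bases after a gene's start. Windows were found for 36 of the 42 genes, and were not found for Ccna2, Cdc25c, Aurkb, Foxm1, Kif20a and Tpx2. The letters searched were TTTGAA or TTCGAA for the CHR and CCAAT for the CCAAT box, each on both strands, and neighbouring matches of the 2 elements can share at most 1 base. Windows of 5 genes are shown to let the letters be read beside the array values given below. Cdk1 encodes the central kinase, Plk1 and Espl1 were among the members lowest in 4T1-3R_L relative to parental cells, Ect2 was among the highest, and Mad2l1 was among the lowest but holds neither element. They lie at chr10:69352863-69353162 (minus strand), chr7:122159185-122159484 (plus strand), chr15:102296043-102296342 (plus strand), chr3:27153829-27154128 (minus strand) and chr6:66534971-66535270 (plus strand). Each is written 5′ to 3′ along the gene, with CHR and CCAAT letters, or their reverse complements, in capitals.
Cdk1: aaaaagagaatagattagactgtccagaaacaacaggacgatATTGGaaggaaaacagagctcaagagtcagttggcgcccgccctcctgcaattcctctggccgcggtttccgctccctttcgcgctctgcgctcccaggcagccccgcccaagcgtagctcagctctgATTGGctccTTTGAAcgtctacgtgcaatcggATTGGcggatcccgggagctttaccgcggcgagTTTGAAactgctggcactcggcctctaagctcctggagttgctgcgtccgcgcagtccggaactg
Plk1: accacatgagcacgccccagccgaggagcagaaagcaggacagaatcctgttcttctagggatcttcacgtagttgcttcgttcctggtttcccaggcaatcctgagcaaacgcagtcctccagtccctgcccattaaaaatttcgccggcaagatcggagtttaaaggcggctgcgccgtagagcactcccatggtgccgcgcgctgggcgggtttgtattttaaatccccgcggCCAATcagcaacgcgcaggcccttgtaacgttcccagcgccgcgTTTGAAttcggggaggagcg
Espl1: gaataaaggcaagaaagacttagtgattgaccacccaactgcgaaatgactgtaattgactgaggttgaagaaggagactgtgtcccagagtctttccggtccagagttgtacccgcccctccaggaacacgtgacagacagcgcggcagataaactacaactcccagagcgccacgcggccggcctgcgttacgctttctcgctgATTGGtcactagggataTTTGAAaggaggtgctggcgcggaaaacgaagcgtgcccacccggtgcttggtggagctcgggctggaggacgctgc
Ect2: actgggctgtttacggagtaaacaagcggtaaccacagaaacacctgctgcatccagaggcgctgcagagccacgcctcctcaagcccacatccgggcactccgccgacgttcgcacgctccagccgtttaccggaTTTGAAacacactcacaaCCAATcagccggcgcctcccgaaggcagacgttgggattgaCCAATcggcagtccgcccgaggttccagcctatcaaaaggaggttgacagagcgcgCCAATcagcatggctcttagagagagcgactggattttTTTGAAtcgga
Mad2l1: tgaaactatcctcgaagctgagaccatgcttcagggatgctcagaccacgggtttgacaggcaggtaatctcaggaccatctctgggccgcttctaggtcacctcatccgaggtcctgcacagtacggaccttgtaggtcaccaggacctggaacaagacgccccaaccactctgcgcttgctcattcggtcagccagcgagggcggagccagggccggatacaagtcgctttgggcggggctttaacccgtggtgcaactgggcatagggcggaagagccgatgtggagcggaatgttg

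The CHR letters were present in the windows of 27 of 36 members, against 1450 of 9059 measured genes with a window (16.0%) and 19.2% of all 32851 windows. In 24 of the 36 (66.7%) the letters began within 50 bases of the start, against 4.24% of measured genes. In the windows shown, they began 15 bases before the start of Cdk1 (with another copy 71 bases before), 27 bases before that of Espl1, and at position 31 of the Plk1 transcript. CCAAT letters were also found in 27 of 36 members, against 43.2% of measured genes, and 24 members held both elements in the same window (66.7% against 6.49%). The E2F letters TTCCCGCC, TTTCCCGC, TTTGGCGC or TTTGGCGG, whose first 2 spellings can overlap each other, were found on either strand in the window of 1 member, Melk (2.78%, against 8.20% of measured genes). These matches describe the letters of a short window and do not show that a factor binds there. The limit of 50 bases and the splits of the log2 ratios by these letters were not part of the plan. The 24 measured members with CHR letters near the start had a median log2 ratio of -0.30. The 11 measured members with a window but no such letters had one of -0.03. The difference was smaller for CHR letters anywhere in the window, -0.23 (27 members) against -0.13 (8 without). With both elements the median was -0.27 (24), against -0.08 (11) for the other members. For 2 or more CCAAT boxes the order was the other way, -0.22 with (17) and -0.25 without (18). Some single genes did not follow the order of the CHR splits, since Ect2, with both elements, was higher in 4T1-3R_L cells and Mad2l1, with neither, was among the lowest.

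Signals are MAS5 probe set intensities that the authors had scaled to the same trimmed mean on both arrays. All 41 members lay above the floor of 90.6, the median of all signals, on both arrays, with signals from 533 (Foxm1 in 4T1-3R_L cells) to 17991 (Pttg1 in parental cells). The median signal of the members was 3440 in parental and 2720 in 4T1-3R_L cells, where all measured genes had medians of 730 and 711. Of 8 epithelial mammary carcinoma markers, 7 reached the floor on both arrays, and Muc1 did so on neither. Among these 7, 6 had log2 ratios below that of the median measured gene. At 1.5-fold, 5 (71.4%) were lower, against 14.0% of all measured genes. Krt18 had signals of 23738 and 20614, and Krt8 had signals of 18784 and 21891. Cldn7 (5432 and 151) and Krt14 (5324 and 171) were much lower in 4T1-3R_L cells. Epcam was also much lower (7536 and 1776, log2 ratio -2.08), but was at -0.59 on its second probe set. Cdh1 (11787 and 5941, -0.99) and Krt19 (4191 and 2470, -0.76) were lower to a lesser extent. None of the 8 hepatocyte markers with a probe set (of 10 listed) and none of 6 endothelial markers reached the floor on either array, and albumin, Alb, had signals under it on both. Of 10 leukocyte markers, 3 reached it on 1 array or both (Csf1r, Cd14 and Cd68), while the pan-leukocyte gene Ptprc did not. Of 8 fibroblast and stellate cell markers, 2 did (Acta2 and Des), while Col1a1, Col1a2 and Col3a1 did not. The summed signal of the leukocyte markers was 2330 in parental and 1170 in 4T1-3R_L cells, where Csf1r alone had 1026 and 88. That of the fibroblast markers was 602 and 429. The sums for hepatocytes (293 and 236) and endothelium (224 and 206) hold only signals under the floor, so they do not show a difference in those cells. The 3′ over 5′ signal ratio of the beta-actin control probe sets was 1.22 for parental and 1.59 for 4T1-3R_L RNA, and that of Gapdh was 0.789 and 1.02, so both were higher for 4T1-3R_L RNA. The part of these differences in the values below was not tested.

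Most G2/M and mitotic genes were slightly lower in 4T1-3R_L cells than in parental cells. The log2 ratio (4T1-3R_L over parental) was below that of the median measured gene in 32 of 41 members (78.0%, against 50% of all measured genes, by definition). The median member had a log2 ratio of -0.23, which is 1.17-fold lower, and the list lay 0.22 below the median of all measured genes (a shift of -0.22). The members' interquartile range was -0.56 to -0.03, against -0.36 to 0.37 over all measured genes. Differences were small: 1 member, the separase gene Espl1, was at least 2-fold lower, against 4.48% of all measured genes, and 0 were at least 2-fold higher, against 6.23%. At a smaller threshold, 9 of 41 (22.0%) were at least 1.5-fold lower, against 14.0% of all measured genes and 14.8% of the 5831 genes at least as bright as the dimmest member. None of the 41 was at least 1.5-fold higher, against 15.8% of all measured genes, and 32 lay within 1.5-fold. With 1 array in each group no test was possible, and it is not known whether differences of this size exceed the spread between cultures. In RNA from whole cultures, fewer cells in G2 or mitosis and less transcript in each such cell cannot be told apart.

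**Figure D1:**
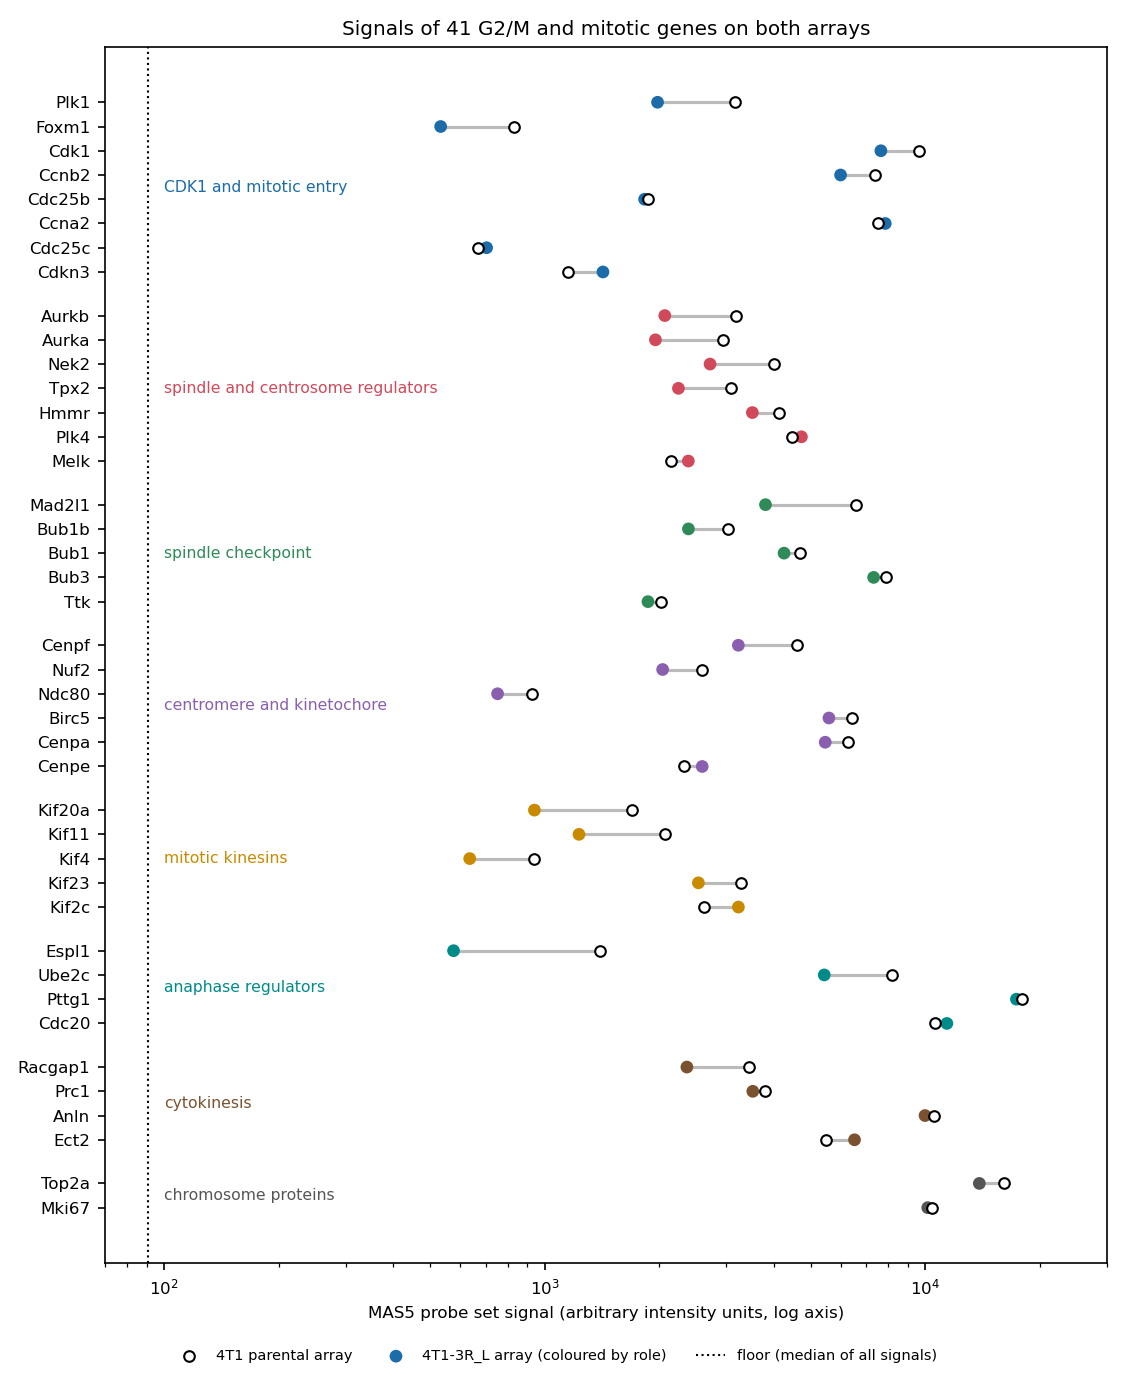
MAS5 signals (log axis) of the 41 measured genes, grouped by role, for parental (open circles) and 4T1-3R_L cells (filled circles). All signals lie to the right of the dotted floor of 90.6, and the filled circle lies left of the open one for most genes, with the widest gap for Espl1 (1400 and 576).

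The number of members past a threshold depended on how the arrays were scaled. At least 1.5-fold lower were 7 members with loess, 8 with quantile normalization and 13 with median scaling. The shares of all measured genes under these scalings were not counted, so these counts are not read as a result about the members. Relative to the median gene the list shift was -0.25 with loess and -0.23 with both quantile normalization and median scaling. All 18 hybridisation control probe sets, for labelled RNAs added in fixed amounts, were brighter on the 4T1-3R_L array, by 0.59 on the log2 scale on average. Scaling the arrays to them moved the median of all measured genes to -0.55 and counted 14 of 41 members at least 2-fold lower, against 21.0% of all measured genes, and 32 of 41 at least 1.5-fold lower, against 47.7%. Relative to the median gene the list shift was then -0.27. Ratios below are on the authors' scaling, under which the median measured gene was at -0.01.

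Of CDK1 and its regulators, 5 of 8 were below the median gene. Their median lay at -0.16 relative to it, but at -0.28 with the median over each gene's probe sets and -0.29 (6 genes) with plain _at probe sets alone, those whose design is meant to match a single transcript. Cdk1 had a signal of 9605 in parental and 7642 in 4T1-3R_L cells, a log2 ratio of -0.33. Ccnb2, a B-type cyclin that activates CDK1, had signals of 7391 and 5989 (log2 ratio -0.30). Ccna2, which encodes the S- and G2-phase cyclin A2, had signals of 7526 and 7846 (0.06). The cyclin subunits measured here thus lay on both sides of the median gene on the probe sets used. On its second probe set, nearly as bright (6472 and 4181), Ccna2 was at -0.63. The phosphatases that remove the inhibitory phosphates of CDK1 were near equal on both arrays, Cdc25b at 1868 and 1831 (-0.03) and Cdc25c at 670 and 704 (0.07). Plk1, a kinase that promotes mitotic entry and spindle assembly, was 1.59-fold lower in 4T1-3R_L cells, with signals of 3155 and 1980 (-0.67). Foxm1, the transcription factor that activates many genes of this set in G2, was 1.56-fold lower, with signals of 830 and 533 (-0.64). Both are counted among the 9 at least 1.5-fold lower. Cdkn3, a phosphatase that acts on cyclin-dependent kinases, had the highest log2 ratio of the list at 0.30, with signals of 1155 and 1423.

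Among kinases and partners of the spindle and centrosome, 5 of 7 were below the median gene and the group median lay at -0.45 relative to it. The Aurora kinases had similar ratios. Aurka, which acts at spindle poles, had signals of 2947 and 1954 (-0.59). Aurkb, the kinase of the chromosomal passenger complex, had signals of 3188 and 2068 (-0.62). Tpx2, which activates Aurora A on spindle microtubules, had signals of 3089 and 2246 (-0.46). Nek2, a kinase that separates centrosomes, was 1.47-fold lower with signals of 4002 and 2719 (-0.56), just short of the 1.5-fold line. Hmmr, a spindle-associated protein and hyaluronan receptor, had signals of 4121 and 3513 (-0.23). The exceptions were Plk4, the kinase that starts centriole duplication, with signals of 4470 and 4726 (0.08), and the kinase gene Melk, with signals of 2141 and 2385 (0.16).

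On the probe sets used, all 5 spindle checkpoint genes, which hold back anaphase until every chromosome is attached, were below the median gene, 4 of them by at most 1.27-fold. Mad2l1, the gene of the checkpoint protein MAD2, was the exception at 1.73-fold lower, from 6563 to 3803 (-0.79). The kinase-like partner Bub1b (BUBR1) had signals of 3023 and 2386 (-0.34). The kinase Bub1 had signals of 4678 and 4255 (-0.14), the adaptor Bub3 had signals of 7904 and 7314 (-0.11), and the kinase Ttk (MPS1) had signals of 2018 and 1868 (-0.11). The group median lay at -0.13 relative to the median gene, but at -0.37 with plain _at probe sets and -0.21 with the median over probe sets, on the same 5 genes. With the median over probe sets, however, Ttk had a log2 ratio of 0.31 and Bub1 one of 0.03, so not all 5 were lower.

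Centromere and kinetochore genes, whose products join chromosomes to spindle microtubules, were below the median gene in 5 of 6 cases. On the probe sets used, 0 of 6 were 1.5-fold lower, against 14.0% of all measured genes. Cenpf, a large protein of the outer kinetochore, had signals of 4599 and 3227 (-0.51). Its other, dimmer probe sets were 1.86-fold and 1.57-fold lower (-0.89 and -0.65). The partners Nuf2 and Ndc80, which bind microtubules together, had log2 ratios of -0.34 (2584 and 2041) and -0.30 (924 and 752). Cenpa, the centromeric histone H3 variant, had signals of 6273 and 5457 (-0.20). Birc5 (survivin), a subunit of the passenger complex, was close to it at 6428 and 5581 (-0.20). The kinesin-like Cenpe was higher, at 2319 and 2594 (0.16).

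Of the mitotic kinesins, 4 of 5 were below the median gene, with a group median at -0.55 relative to it (-0.44 with plain _at probe sets, on 4 genes). Kif20a, which is needed for cytokinesis, was 1.81-fold lower, with signals of 1698 and 940 (-0.85), the second lowest ratio of the list. Kif11, the motor that pushes spindle poles apart, was 1.68-fold lower, with signals of 2072 and 1231 (-0.75). The chromosome-bound motor Kif4 had signals of 937 and 636 (-0.56). Kif23, a subunit of the centralspindlin complex, had signals of 3277 and 2534 (-0.37). Kif2c, which takes microtubule ends apart at centromeres, was 1.23-fold higher, with signals of 2621 and 3228 (0.30), but its other probe sets had the opposite sign, as given below.

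Genes that act at anaphase spanned the range of the list from its lowest member to members near equality. Espl1, the gene of separase, which cuts cohesin to release sister chromatids, had signals of 1400 in parental and 576 in 4T1-3R_L cells, 2.43-fold lower (log2 ratio -1.28), and 2.03% of all measured genes had a lower ratio. Pttg1, the gene of securin, which keeps separase inactive until anaphase, had the highest signal of the list, with 17991 and 17347 (-0.05). Separase and its inhibitor thus differed in their ratios on the probe sets used, but Pttg1 was at -0.95 and -0.34 on its other probe sets. Ube2c, the ubiquitin-conjugating enzyme of the anaphase-promoting complex, was 1.51-fold lower, with signals of 8169 and 5425 (-0.59). Cdc20, the activator of that complex in mitosis, had signals of 10577 and 11390 (0.11).

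Cytokinesis genes went both ways around the median gene, with a group median at -0.09 relative to it, which was 0.02 with the median over each gene's probe sets. Racgap1, the partner of Kif23 in centralspindlin, was 1.46-fold lower, with signals of 3442 and 2364 (-0.54). Prc1, which bundles microtubules of the central spindle, had signals of 3793 and 3522 (-0.11), and the contractile ring scaffold Anln had signals of 10566 and 9981 (-0.08). Ect2, the exchange factor that activates RhoA at the division plane, was 1.19-fold higher, with signals of 5473 and 6515 (0.25). Of the chromosome proteins used as proliferation markers, Mki67, the gene of the Ki-67 antigen, was near equal at 10386 and 10146 (-0.03), and the DNA topoisomerase Top2a had signals of 16119 and 13861 (-0.22).

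**Figure D2:**
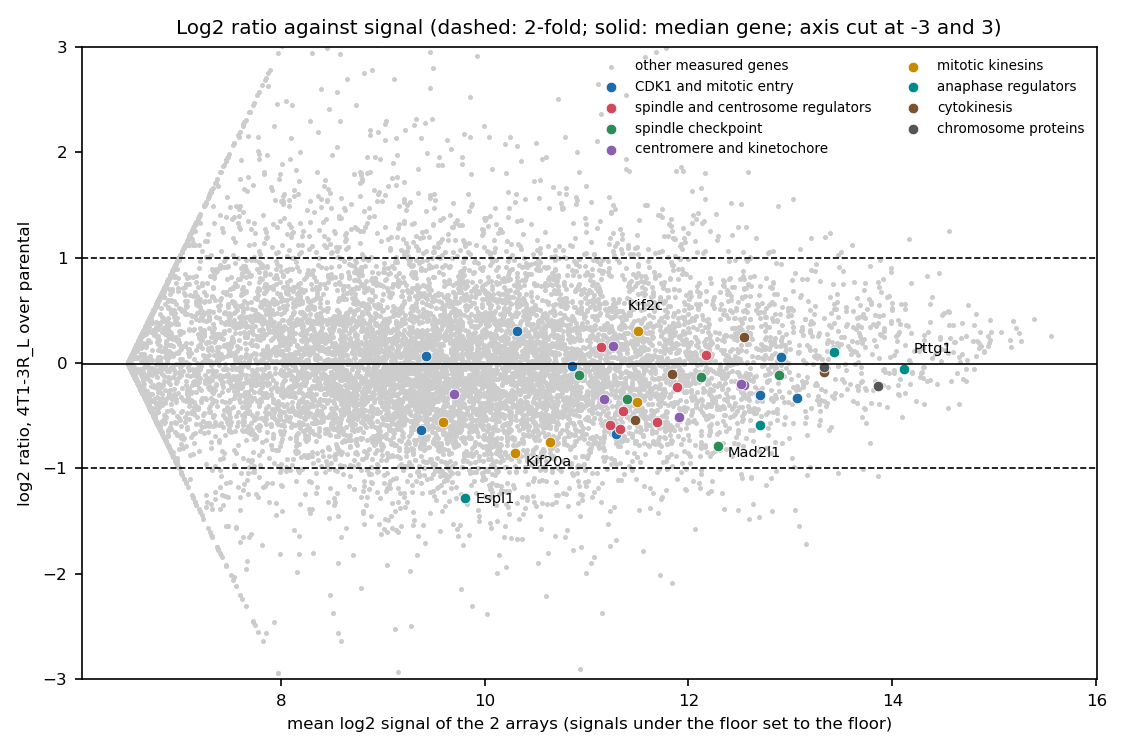
Log2 ratio (4T1-3R_L over parental) against mean log2 signal for all 11136 measured genes (grey) and the 41 members (coloured by role); the vertical axis is limited to -3 and 3. Members sit in the brighter part of the range and lie between -1.28 (Espl1) and 0.30 (Cdkn3 and Kif2c), with most below the line of the median gene.

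The 13 members with a geometric mean signal of 5000 or more had a median at -0.11 relative to the median gene, and 1 of them (Ube2c) was at least 1.5-fold lower. The 28 dimmer members had a median at -0.35, and 8 were at least 1.5-fold lower, among them Mad2l1, which lay just under the limit of 5000. Over all measured genes the order was the same for the share at least 1.5-fold lower (7.0% of 814 bright genes and 14.6% of 10322 dimmer genes), and the medians lay at 0.12 and -0.01. Members of both signal classes thus had medians below those of all genes in the class.

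Of 90 single-gene probe sets of the 41 members, 82 reached the floor on at least 1 array, and 67 of these (81.7%) were below the median gene, against 50.6% of all 20474 measured probe sets. For the 24 members with a second measured probe set, the median lay at -0.16 on the brightest and at -0.39 on the second brightest, where over all measured genes with 2 or more measured probe sets these medians were 0.01 and -0.02. Of the 24 second probe sets, 8 (33.3%) were at least 1.5-fold lower, against 16.0% over all such genes, and 2 (8.33%) were at least 1.5-fold higher, against 14.7%. Of the 24 first ones, 3 (12.5%) were at least 1.5-fold lower, near the 13.8% over all such genes. The second was lower than the first in 15 of 24 members (62.5%), against 56.6% of all 5379 such genes. The 2 fell on the same side of the median gene in 17 of 24 (70.8%), about the share over all such genes (3766 of 5379).

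Several members that looked near equal on the brightest probe set were lower on another. Pttg1 was 1.94-fold lower on its second probe set (6319 and 3265, log2 ratio -0.95) and had a log2 ratio of -0.34 on the dimmest of its 3. Ccna2 was at -0.63 on its second (6472 and 4181), and Cdc20 at -0.52 on its second (6162 and 4292) but 0.13 on the dimmest of its 3. All 4 other probe sets of Hmmr lay between -0.80 and -0.67, where the one used was at -0.23. Kif2c was at -0.29, -0.40 and -0.23 on its other probe sets, so its higher value rests on 1 of 4. Top2a was at -0.72 on its second, and Kif11 reached 2-fold on both others, at -1.22 and -1.06. In the other direction, the second probe sets of Ttk (189 and 313, log2 ratio 0.73), Anln (515 and 882, 0.78) and Bub1 (0.20) were higher in 4T1-3R_L cells, all dimmer than the probe sets used. Espl1, Kif20a, Mad2l1, Plk1 and Ube2c had no second measured probe set, so their values have no such check, and the only other probe set of Aurka was under the floor. Names ending in plain _at belong to probe sets designed to match 1 transcript, while _s_at and _x_at mark probes shared between transcripts or open to cross-hybridisation. The 47 measured member probe sets with plain _at names had a median at -0.33 relative to the median gene. The 19 with _a_at names also had a median at -0.33, with 18 of them below the median gene. The 8 with _s_at and the 8 with _x_at names had medians at -0.13 and -0.19. Over all measured probe sets the _x_at class lay at 0.16 and the _a_at class at -0.08. With plain _at probe sets alone, 32 members remained and the list shift was -0.36.

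**Figure D3:**
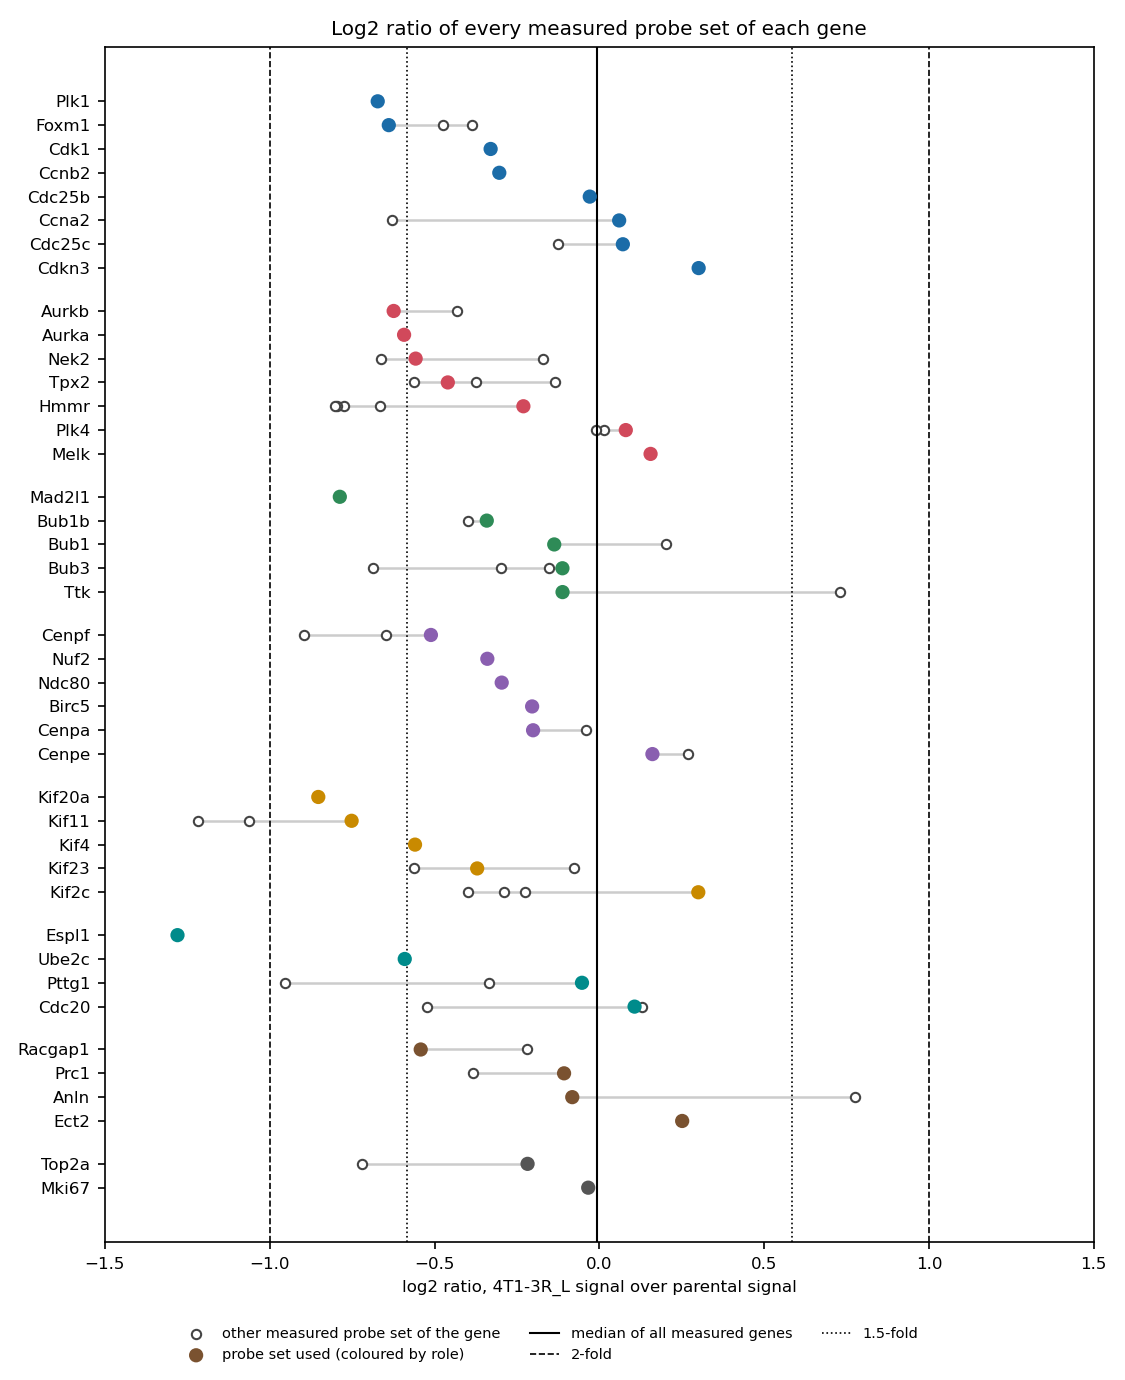
Log2 ratio (4T1-3R_L over parental) of every measured probe set of the 41 genes, with the probe set used filled and coloured by role and others open; solid, dotted and dashed lines mark the median gene, 1.5-fold and 2-fold. Open circles lie mostly left of the filled ones for Pttg1, Ccna2, Hmmr, Kif11 and Kif2c, and right of them for Ttk and Anln.

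Other genes of the cell cycle were compared by lists with no gene in common with the members. Of 60 measured further mitotic genes (kinetochore subunits, spindle proteins and mitotic kinases), 43 (71.7%) were below the median gene, 15 passed 1.5-fold on the lower side and 1 on the higher side, and 0 were 2-fold apart. Their shift was -0.29, where that of the members was -0.22. The lowest were the kinetochore genes Cenph (1112 and 562, log2 ratio -0.99) and Cenpi (1220 and 645, -0.92) and the centromere protein gene Oip5 (492 and 251, -0.97). The 1 higher gene was Cit (0.65), the citron kinase of the midbody. Subunits of condensin and cohesin, which fold chromosomes and hold sister chromatids, lay nearer to the median gene, with 9 of 17 below it. Their median was at -0.06, which was 0.10 with plain _at probe sets. On the probe sets used, 0 were at least 1.5-fold lower or higher, against 14.0% and 15.8% of all measured genes. The widest ratios were those of the cohesin subunit Stag1 (0.50) and the condensin subunits Ncapd2 (-0.43) and Ncaph (0.36). The substrate of separase, the cohesin subunit Rad21, had signals of 8101 and 6392 (-0.34), with 0.77 on its second probe set.

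Subunits, enzymes and regulators of the anaphase-promoting complex had a median at -0.20, with 11 of 18 below the median gene. At 1.5-fold, 4 (22.2%) were lower and 1 was higher, against 14.0% and 15.8% of all measured genes. The 4 were the conjugating enzymes Ube2s (4673 and 2825, -0.73) and Ube2d1 (-0.71), the subunit Anapc10 (-0.60) and Fzr1 (-0.59), which encodes the activator CDH1. On second probe sets, Anapc10 was at -1.18 and the subunit Anapc11 at 0.98 (0.25 on the one used). The subunit Anapc13 was at 0.61. Of G1/S and DNA replication genes, 40 of 49 (81.6%) were below the median gene, and their median lay at -0.42. At 1.5-fold, 15 (30.6%) were lower and 3 higher, against 14.0% and 15.8% of all measured genes. Of the 49 genes, 2 passed 2-fold on the lower side, against 4.48% of all measured genes. They were Pola1, which encodes the catalytic subunit of DNA polymerase alpha (2267 and 907, -1.32), and the origin recognition gene Orc2 (1131 and 544, -1.06). Orc1, of the same complex, followed at -0.85. On their second probe sets, Fen1 (-1.26), Cdt1 (-1.12) and Mcm3 (-1.06) also passed 2-fold on the lower side. The 3 higher genes were Ccnd2 (0.72), Cdk6 (0.69) and Ccnd1 (12042 and 19199, 0.67), which encode 2 D-type cyclins and a kinase that they activate. The other D-type cyclin gene, Ccnd3, was at -0.18 (1.09 on its second probe set), and the other kinase gene, Cdk4, was 1.70-fold lower (-0.77).

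The factors that act on CHR, CCAAT and E2F elements had a median at -0.11, with 15 of 22 measured genes below the median gene. At 2-fold, 2 were lower and 1 was higher, against 4.48% and 6.23% of all measured genes. Mybl2, the gene of B-MYB, which joins MuvB in the activation of G2 genes, had signals of 1164 and 540, 2.16-fold lower (-1.11). Tfdp1, the partner of E2F factors, was 2.05-fold lower, from 5561 to 2709 (-1.04). Rb1, the retinoblastoma gene, was 2.08-fold higher, with signals of 502 and 1043 (1.05). Rbl2, the gene of the DREAM subunit p130, was at -0.69, while of the MuvB subunits Lin9, Lin37 and Lin54 were between -0.07 and -0.05, Lin52 was at 0.25 and Rbbp4 at 0.56 (0.00 on its second probe set). Among inhibitors of cyclin kinases and p53 targets, 12 of 15 were measured and 7 were below the median gene. Their median lay at -0.22 but at 0.18 with a floor at the 60th percentile. Cdkn1a, the gene of p21, was 3.39-fold higher (296 and 1004, 1.76), and Sfn, the gene of 14-3-3 sigma, which sequesters CDK1 and cyclin B in the cytoplasm, was 3.77-fold lower (1025 and 272, -1.91). Cdkn2c, the gene of the CDK4 and CDK6 inhibitor p18, was at 0.85 (3005 and 5399).

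**Figure D4:**
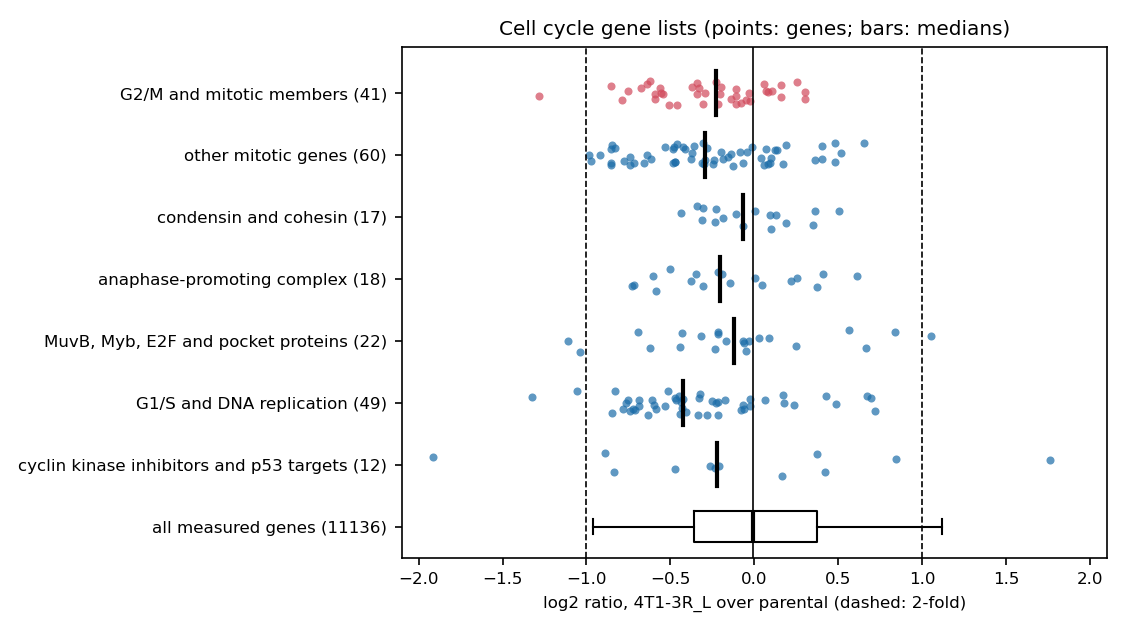
Log2 ratios (4T1-3R_L over parental) of the measured members (red) and 6 other cell cycle lists (blue), 1 point a gene, with thick bars at the medians and the number of measured genes in brackets. The box shows the interquartile range of all measured genes with whiskers at percentiles 5 and 95, and the medians of all 7 lists lie left of the median gene, furthest for G1/S and DNA replication at -0.42.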

How the data were processed

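Per the submitters' processing notes, the authors made the deposited linear intensities with MAS5. The sources used here give no version, scaling target or detection calls. Both arrays had a mean of 500.003 with the lowest and highest 2% of values left out, and were not scaled again. Of 45101 probe sets, 34958 carried 1 gene symbol in the platform annotation. Signals were floored at 90.6, the median of all signals, and log2 ratios taken (4T1-3R_L over parental). Each gene was represented by the probe set brightest on average over both arrays (log2), and counted as measured where this reached the floor on at least 1 array. With 1 array a group there was no test and no p-value, and the number of arrays limits the precision. Counts used 2-fold and 1.5-fold. The members and lists were chosen with earlier results of these data known. All members are named, with, in each other list, the genes with the largest ratios or at least 2-fold apart; Rad21, Rbl2, Lin52, Cit, MuvB subunits, Anapc10, Anapc13, Fzr1, D-type cyclins, Cdk4 and Cdk6 were chosen after their values were seen. Alternatives changed the scaling (median, quantile, loess, hybridisation controls), the floor (percentile 40 or 60, or a pseudocount of 32 with and without the filter) and the choice of probe set. The steps were tested on simulated data. Python 3.11.15, pandas 2.3.3 and statsmodels 0.14.6 were used.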

Additional observations from a re-analysis of the deposited data

How the results depend on the processing

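Over the 10 alternatives the shift of the list relative to the median gene ran from -0.36 to -0.21, and 32 members were below the median gene in 9 of them, with 27 of 32 under plain _at probe sets. That setting gave the shift of -0.36, on fewer genes, and 2 members at least 2-fold lower. The median over probe sets also gave 2, and the shares of all measured genes were not counted under either setting. Scaling to the hybridisation controls gave 14 at least 2-fold and 32 at least 1.5-fold lower (21.0% and 47.7% of all measured genes were), since the controls were 0.59 brighter on the 4T1-3R_L array. In these alternatives 0 members were at least 1.5-fold higher. The list of cyclin kinase inhibitors and p53 targets lay at 0.18, on 11 genes, when the floor was the 60th percentile of signals, and the cause was not tested. Of the 80 values of role groups, 67 moved by no more than 0.10, and cytokinesis went from -0.09 to 0.02 with the median over probe sets. Of 401 values of single members, 350 moved by no more than 0.35, the median difference between 2 probe sets of a gene, and 41 of the other 51 came from the hybridisation controls. With 1 array a group, no alternative could leave out a replicate.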

Other observations

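CHR letters within 50 bases of the start were also found in the promoter windows of 360 measured genes that are not among the members. Their median log2 ratio lay at -0.12 relative to the median gene, and 214 of them (59.4%) were below it. Leaving out the genes of every cell cycle list left 326 genes, with a median at -0.11 and 189 (58.0%) below the median gene. The list of further mitotic genes was not meant to be complete, so other genes of mitosis may remain among the 326. Measured genes with both CHR and CCAAT letters in a window, again without the listed genes, had a median at -0.05 (527 genes). Of these, 279 (52.9%) were below the median gene. Lower medians were not particular to the CHR. Over all measured genes with a window, listed genes included, the median log2 ratio was -0.07 with E2F letters and 0.00 without. It was -0.06 with CHR letters anywhere in the window and 0.01 without. These are values of 2 arrays, with no test.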
